A study of Rattus norvegicus with 12 samples.

Results

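A set of 10 neuropeptide precursor genes were followed across the striatum of rats labelled as having self-administered methamphetamine (MA): *Tac1*, *Cck*, *Sst*, *Npy*, *Vip*, *Cartpt*, *Trh*, *Adcyap1*, *Crh* and *Scg2*. They were taken by symbol from the deposited table of raw counts, and all 10 of 10 were among its 17337 genes. The opioid peptides and neurotensin were not included. Each library was made from the whole striatum of 1 wild-type male Sprague–Dawley rat, and the 12 libraries fell into 3 groups of 4 rats. MA12 and MA24 rats had 16 days of MA self-administration and were killed 12 h and 24 h after their last session. A further 4 rats carried the label non-addicted, also after 16 days of MA self-administration, and neither the labels nor the methods define that word or give the time at which these rats were killed. By these labels all 3 groups shared exposure to MA. The paper describes a saline group, an MA group without abstinence, MA12 and MA24, and names no non-addicted group. Whether the non-addicted rats are one of its other groups cannot be told from the sources used here. No library was labelled as saline. Every MA24 rat, 2 of the 4 MA12 rats and no non-addicted rat carried a number ending in N. The labels do not say what N stands for, so in non-addicted vs. MA24 the kind of rat number and the group cannot be told apart.

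Neuropeptides are cut from longer precursors, stored in dense-core granules and released by sustained neuronal firing. They then act on G protein-coupled receptors, often at a distance from the site of release. In the striatum, substance P from *Tac1* is a classical product of the projection neurons of the direct pathway, whereas somatostatin (*Sst*) and neuropeptide Y (*Npy*) are made together by a sparse class of GABAergic interneurons that also express neuronal nitric oxide synthase (*Nos1*). CART peptide, from *Cartpt*, takes its name from the transcript that psychostimulants raise in rat striatum.

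The libraries held between 17908962 and 23850284 counts. Genes of striatal projection neurons were abundant in every rat, with 138409 to 203294 counts of *Ppp1r1b* (DARPP-32), 7182 to 11975 of *Drd1* and 16964 to 22696 of *Adora2a*. Genes listed for neighbouring tissue varied in depth. The hypothalamic genes *Pmch* and *Sim1* had 0 counts in all 12 libraries, while *Avp* had 2 to 181, *Oxt* 0 to 42 and *Pomc* 55 to 106. The cortical gene *Neurod6* had 0 to 7 counts, while *Slc17a7* had 46 to 181 and *Fezf2* 89 to 182. How much neighbouring tissue each sample held was not tested. Levels below are log2 CPM (counts scaled to library size), and fold changes (log2FC) come from edgeR's quasi-likelihood test over all genes that passed the filters. DEGs had to change at least 1.5-fold and to keep a p below 0.05 after Benjamini-Hochberg adjustment. In a bulk sample, fewer cells of a type and less RNA per cell cannot be told apart. Counts of different genes are not scaled to gene length and are given as depth, not as a ranking.

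Several of these genes are known targets of the cAMP-responsive factor CREB, and the promoters of *Cartpt*, *Sst* and *Scg2* are shown because they held the complete 8-letter CRE sequence, with *Vip* as an example of its 5-letter core. RefSeq promoters of the GRCr8 assembly, 250 bases before to 50 after the annotated start of transcription, were found for 8 of the 10 genes, while *Cck* and *Crh* had no entry. The palindrome TGACGTCA was present in 3 of the 8, and the core TGACG or its reverse complement CGTCA in 6, which include these 3. Among all 33469 promoters of the same length, 1.83% held the palindrome and 21.2% the core. Stretches are written 5′ to 3′ on the strand of the gene with the match in capitals.
*Cartpt*, chr2:32991330-32991417, minus strand, match at bases -142 to -135 from the start: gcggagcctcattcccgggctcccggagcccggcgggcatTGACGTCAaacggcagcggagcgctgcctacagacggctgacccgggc
*Scg2*, chr9:88256942-88257029, minus strand, match at bases -123 to -116: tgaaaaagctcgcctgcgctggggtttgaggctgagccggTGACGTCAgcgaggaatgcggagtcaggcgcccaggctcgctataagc
*Sst*, chr11:90461508-90461555, plus strand, match at bases 3 to 10 of the annotated transcript: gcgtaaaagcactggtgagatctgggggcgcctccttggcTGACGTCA
*Vip*, chr1:44470343-44470427, plus strand, core at bases -97 to -93: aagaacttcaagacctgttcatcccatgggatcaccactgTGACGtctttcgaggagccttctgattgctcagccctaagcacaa
The other 2 genes with the core alone were *Tac1* and *Trh*, and neither motif was found in the windows of *Npy* and *Adcyap1*. A match is a stretch of letters, and no binding was measured. The counts themselves were made on the rn6 build.

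Expression of the 10 genes separated into well-counted and barely counted members. *Tac1* (7514 to 11533 counts per rat), *Scg2* (3225 to 6826) and *Sst* (3438 to 6081) were the deepest, followed by *Cck* (288 to 470), *Trh* (177 to 271) and *Cartpt* (43 to 422). *Crh* (0 to 56), *Npy* (2 to 24), *Vip* (0 to 22) and *Adcyap1* (0 to 9) had so few counts that single reads shaped their values. *Adcyap1* fell below the mean count of 4 needed for testing in each comparison, so 9 of the 10 genes were tested throughout. Rats of the same group differed least in *Trh* and *Sst*, with a pooled SD within groups of 0.17 log2 CPM for each. Among the well-counted genes the spread was widest for *Cartpt*, at 0.96.

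**Figure D1:**
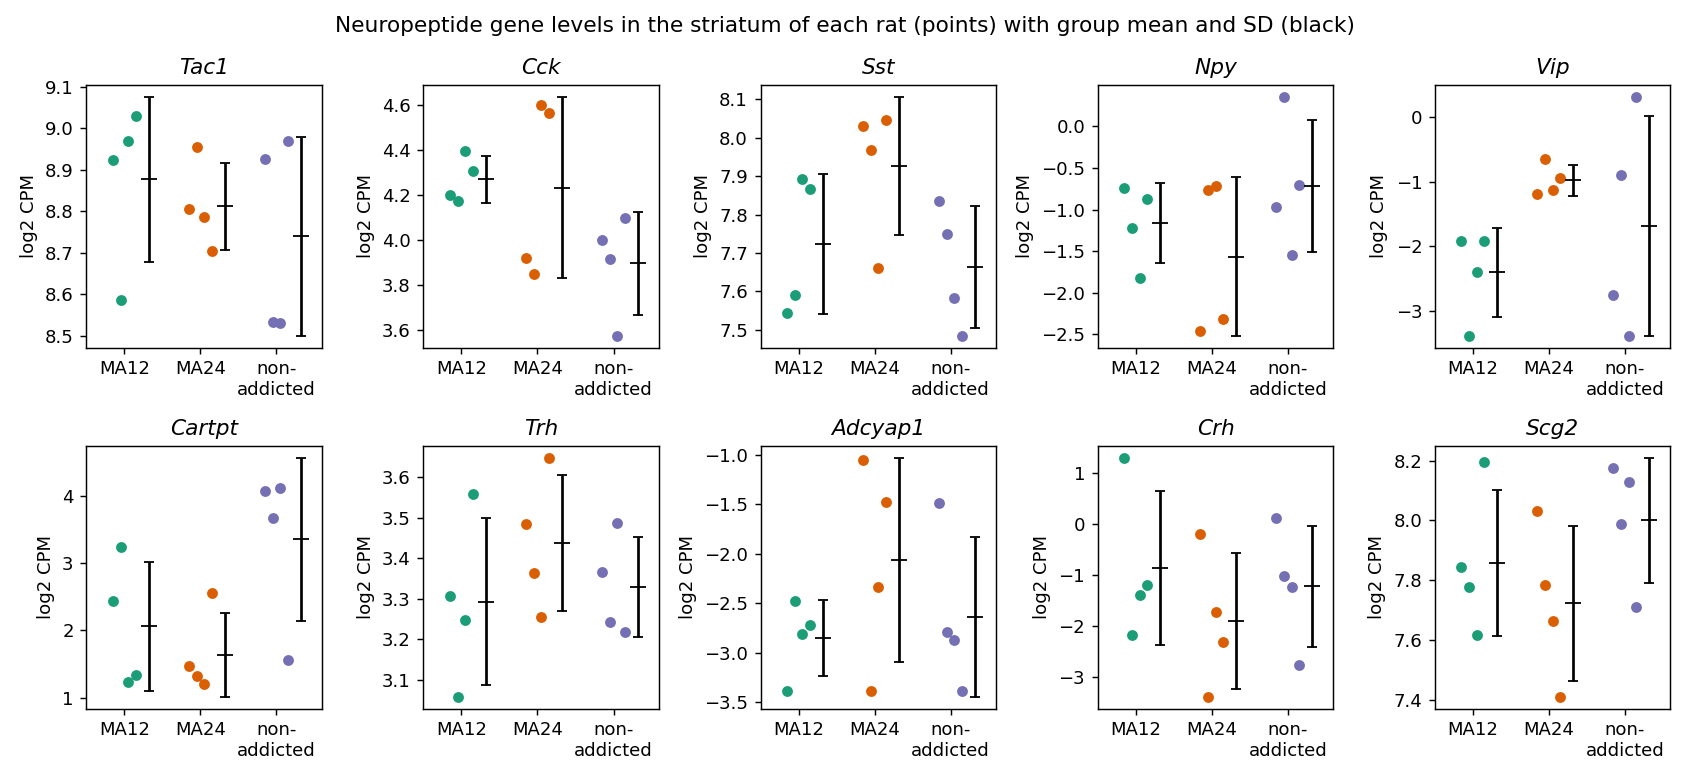
Levels of the 10 neuropeptide genes in each rat, with log2 CPM on the y axes and the groups MA12, MA24 and non-addicted (4 rats each) on the x axes. Points are rats, and black marks give the group mean and SD. *Tac1*, *Sst*, *Trh* and *Scg2* lie within narrow bands, whereas *Cartpt* runs from 1.20 to 4.12 and 3 of the 4 non-addicted rats are above every other rat.

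Abstinence of 24 h was compared with 12 h first, because MA24 vs. MA12 is the contrast of time that the labels define. The paper kept its rats on a 12-h light–dark cycle, and the clock times of sessions and of killing are not given. If sessions were held at a fixed hour, the 2 groups were killed at opposite phases of the day. Length of abstinence and time of day then cannot be told apart. None of the 9 tested peptide genes was a DEG by edgeR's quasi-likelihood test, against 2.45% of all 10754 genes tested, of which 0.735% were higher and 1.72% lower in MA24. DESeq2 likewise called 0, and 1 of the 9, *Vip*, had an unadjusted p below 0.05, as did 23.6% of all genes. The median log2FC of the 9 genes was -0.07, beside -0.02 for all genes.

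*Tac1*, the precursor of substance P and neurokinin A, was at 8.92, 8.59, 8.97 and 9.03 log2 CPM in MA12 rats 21, 31, 4N and 7N. In MA24 rats 9N, 14N, 15N and 16N it was at 8.80, 8.95, 8.78 and 8.70. The ranges overlapped, and the log2FC was -0.07 (SE 0.11, adjusted p = 0.723, edgeR), with a 95% interval of -0.30 to 0.15. That interval lies inside the 1.5-fold bound of a DEG in both directions. Other genes of the direct pathway gave 0 DEGs of 6 tested in MA24 vs. MA12, with a median of -0.18. Of these, *Pdyn*, the precursor of dynorphins, had a log2FC of -0.57 (SE 0.11, adjusted p = 0.00838, edgeR), just short of the fold required. Its groups did not overlap, as for 15.6% of all genes tested.

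*Sst*, made by interneurons, was at 7.54, 7.59, 7.89 and 7.87 log2 CPM in the same order of MA12 rats and at 8.03, 7.97, 7.66 and 8.05 in MA24 rats. 3 of the MA24 rats lay above all MA12 rats and 1 lay among them. The log2FC of 0.20 (SE 0.11, adjusted p = 0.276, edgeR) had an interval of -0.03 to 0.44. Of the other genes of the interneurons that make *Sst* and *Npy*, 6 were tested and 1 was called lower, beside 1.72% of all genes. The median log2FC of these 6 was -0.31. The gene called was *Nos1*, with 658, 802, 880 and 458 counts at 12 h against 671, 211, 327 and 372 at 24 h (log2FC -0.76, SE 0.21, adjusted p = 0.0434, edgeR). Its groups overlapped, and the call was lost in 13 of 17 other settings (highest adjusted p 0.132), among them DESeq2 (0.116), each other filter, and leaving out MA12 rats 21, 31 or 4N or MA24 rats 14N, 15N or 16N (0.0523 to 0.0984). The difference in *Sst* was 0.07 (adjusted p = 0.835, edgeR) among rats with an N and 0.05 in a fit of all 8 rats that included a term for the N.

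Counts of *Npy* were 12, 8, 4 and 8 at 12 h and 2, 10, 10 and 2 at 24 h, in libraries with at least 3438 counts of *Sst*. In non-addicted rats 9, 11, 12 and 13 it had 8, 24, 6 and 10. These counts are low beside the 367 to 592 of *Lhx6* and 206 to 880 of *Nos1*, genes of the same interneurons. Whether the rn6 annotation or the counting left reads of *Npy* out was not tested, so its values describe the counted reads and may not describe its expression. The differences in *Npy* were -0.31 (SE 0.72) in MA24 vs. MA12, 0.65 (SE 0.61) in non-addicted vs. MA12 and 0.97 (SE 0.70) in non-addicted vs. MA24, each smaller than 1.5 times its SE.

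*Vip*, the vasoactive intestinal peptide gene of another interneuron class, was the gene whose groups separated between the abstinence times. MA12 rats had 4, 0, 2 and 3 counts of it and MA24 rats 8, 11, 7 and 8, so all MA24 rats were above all MA12 rats, as for 15.6% of all genes tested. The log2FC was 1.93 (SE 0.80), with an interval of 0.25 to 3.61 and an adjusted p of 0.154 (edgeR). The two-sided exact permutation test over the 70 splits of 4 rats against 4 gave p = 0.0286, the smallest it can give. Non-addicted rats had 1, 9, 0 and 22 counts of *Vip*, a spread wider than that of both other groups. Each value is a handful of reads, and the comparison did not pass correction.

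*Crh*, the corticotropin-releasing hormone gene, was carried by few reads and by MA12 rat 21 above others, with 56, 3, 6 and 6 counts at 12 h and 18, 0, 4 and 2 at 24 h. The fitted difference between these groups, a log2FC of -1.46 (SE 0.90), had an adjusted p of 0.331 (edgeR), and without rat 21 it was 0.20. Non-addicted rats had 19, 8, 8 and 1 counts of *Crh*. *Adcyap1*, which encodes PACAP, had 0, 2, 1 and 1 counts in MA12 rats, 9, 0, 2 and 5 in MA24 rats and 5, 1, 1 and 0 in non-addicted rats. No direction could be read from such counts at this depth.

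*Trh*, the precursor of thyrotropin-releasing hormone, stayed between 3.06 and 3.65 log2 CPM in all 12 rats. Its group means were 3.29 ± 0.21 in MA12, 3.44 ± 0.17 in MA24 and 3.33 ± 0.12 in non-addicted rats (SD, n = 4 each). The fitted differences were 0.15 (SE 0.16) in MA24 vs. MA12, 0.03 (SE 0.16) in non-addicted vs. MA12 and -0.12 (SE 0.15) in non-addicted vs. MA24. All 3 of their intervals lay between -0.44 and 0.49 and so inside the 1.5-fold bound. In the RefSeq gene table *Trh* overlaps a long noncoding RNA gene, and whether the counting used strand is not given in the sources used here, so reads of the 2 genes may not be separate.

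*Scg2* encodes secretogranin II, a granin of the dense-core granule and the precursor of secretoneurin. It was at 7.85, 7.78, 7.62 and 8.19 log2 CPM in MA12 rats, at 8.03, 7.78, 7.66 and 7.41 in MA24 rats, and at 8.17, 7.99, 8.13 and 7.71 in non-addicted rats. The 3 groups overlapped. The largest of its differences was 0.27 (SE 0.13, adjusted p = 0.283, edgeR) in non-addicted vs. MA24, with an interval of 0.00 to 0.53 and an exact permutation p of 0.143. Genes that process and store peptide precursors, such as prohormone convertases and chromogranins, gave 0 DEGs of 10 tested in MA24 vs. MA12, 0 of 12 in non-addicted vs. MA12 and 0 of 10 in non-addicted vs. MA24. Their medians were 0.08, 0.07 and -0.05. Genes of peptide-degrading enzymes and of the CRH-binding protein gave 0 DEGs of 10, 10 and 9 tested, with medians of -0.11, -0.10 and 0.02.

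**Figure D2:**
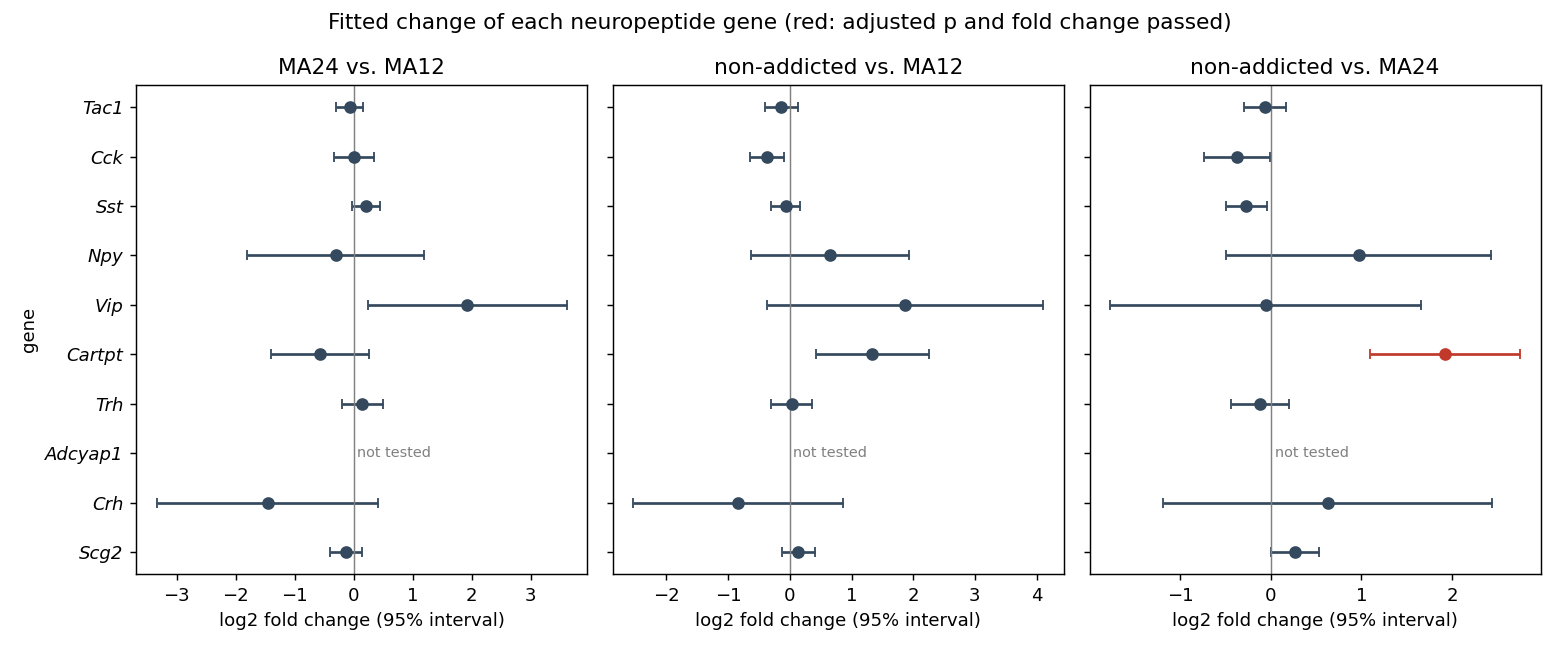
Fitted log2FC of the 9 tested neuropeptide genes (y axis) in the 3 comparisons, 1 panel each, with log2FC on x axes whose scales differ between panels. Points are estimates, bars are 95% intervals, and red marks a DEG. *Tac1*, *Sst*, *Trh* and *Scg2* have short bars near 0, *Npy*, *Vip* and *Crh* have long bars, and the red point is *Cartpt* in non-addicted vs. MA24 at 1.92.

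Non-addicted rats were then set against each abstinence group. These 2 comparisons share the non-addicted rats, so their values are given side by side and are not independent. In non-addicted vs. MA12, 0 of the 9 tested peptide genes were DEGs by edgeR and by DESeq2, against 0.251% of all genes (0.102% higher and 0.149% lower in non-addicted rats), and 2, *Cck* and *Cartpt*, had an unadjusted p below 0.05, as did 12.3% of all genes. In non-addicted vs. MA24, 1 of the 9 was a DEG, *Cartpt*, against 0.456% of all genes, with 0.326% higher and 0.13% lower in non-addicted rats. None of the 9 separated these groups without overlap, as 10% of all genes did. *Cck*, *Sst* and *Scg2* also had an unadjusted p below 0.05 there, which 17.5% of all genes had. The median log2FC of the 9 genes was 0.03 against MA12 and -0.06 against MA24, beside -0.01 and 0.00 for all genes.

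*Cartpt* had 320, 257, 422 and 55 counts in non-addicted rats 9, 11, 12 and 13. It had 62, 49, 43 and 110 counts in MA24 rats 9N, 14N, 15N and 16N. MA12 rats 21, 31, 4N and 7N had 126, 225, 48 and 43. Non-addicted rats 9, 11 and 12 were thus above all 8 abstinent rats, while rat 13 was below MA24 rats 9N and 16N in raw counts and, at 1.56 log2 CPM, between them in scaled level.

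Group means of *Cartpt* were 3.36 ± 1.21 log2 CPM in non-addicted, 2.06 ± 0.96 in MA12 and 1.64 ± 0.62 in MA24 rats (SD, n = 4 each). In non-addicted vs. MA24 the log2FC was 1.92 (SE 0.40, 95% interval 1.09 to 2.75), an FC of 3.79, with an adjusted p of 0.0363 (edgeR). The exact permutation test of the scaled levels, two-sided, gave p = 0.0571. In non-addicted vs. MA12 the log2FC was 1.34 (SE 0.44, interval 0.42 to 2.25) with an adjusted p of 0.192 (edgeR) and an exact permutation p of 0.143. MA24 vs. MA12 gave -0.58 (SE 0.40, adjusted p = 0.383, edgeR). By mean the order was non-addicted, MA12 and MA24, and neither pair of neighbours in it differed by a passed test.

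The call of *Cartpt* was close to the threshold. Over 15 other settings of the non-addicted vs. MA24 comparison, estimates lay from 1.71 to 2.34 on the log2 scale while the adjusted p ran from 5.61e-05 to 0.108, so that *Cartpt* was a DEG in 6 and was not in 9. DESeq2 gave an adjusted p of 0.0567, and leaving out the filter on variance gave 0.0945. It was also lost without non-addicted rat 11 (adjusted p = 0.0726, edgeR) or rat 12 (0.100), and without MA24 rat 9N (0.0546) or rat 15N (0.0922). Without non-addicted rat 13, *Cartpt* was a DEG against MA24 (log2FC 2.25, adjusted p = 5.61e-05, edgeR) and also against MA12 (1.68, adjusted p = 0.0157).

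**Figure D3:**
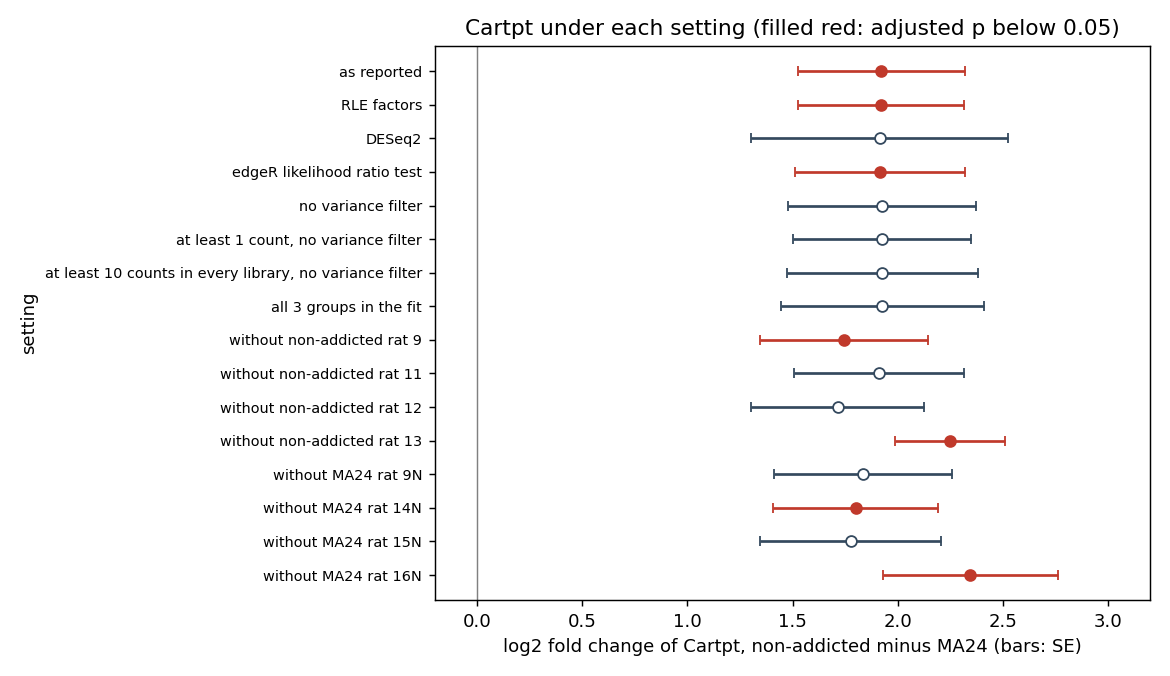
*Cartpt* in non-addicted vs. MA24 under the reported fit and the 15 other settings (y axis), with log2FC on the x axis and bars for the SE. Filled red points have an adjusted p below 0.05. All estimates lie between 1.71 and 2.34, and 9 of the 15 other settings have open points.

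*Cartpt* also moved with the kind of rat number. The 2 MA12 rats with an N had 48 and 43 counts, and the 2 without it had 126 and 225. Over all groups, the 6 rats with an N had 43 to 110 counts and the 6 without it 55 to 422. Among rats without an N, non-addicted vs. MA12 gave a log2FC of 0.77 (adjusted p = 0.489, edgeR), and among rats with an N, MA24 vs. MA12 gave 0.49 (adjusted p = 0.592, edgeR), the opposite sign to the fit over all rats. No rats allow such a comparison for non-addicted vs. MA24.

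Marker genes of neighbouring tissue were examined beside this result. Hypothalamic genes gave 0 DEGs of 8 tested in non-addicted vs. MA24, with a median log2FC of 0.43. Of the 8, 3 had an unadjusted p below 0.05 (edgeR), as did 17.5% of all genes. The summed level of this list was 14.7 to 27.4 CPM in non-addicted, 16.3 to 19.3 in MA24 and 15.4 to 19.6 in MA12 rats. Over all rats *Nkx2-1* had 146 to 257 counts, *Pomc* 55 to 106, *Avp* 2 to 181 and *Oxt* 0 to 42, while *Pmch* and *Sim1* had 0. The sum therefore rests largely on *Nkx2-1* and *Pomc* and says little of the genes with fewer counts or of the amount of hypothalamus. Choroid plexus genes gave 0 DEGs of 6 tested, with a median of 1.14, and summed to 8.54 to 27.4 CPM in non-addicted, 5.28 to 8.23 in MA24 and 4.99 to 10.7 in MA12 rats. Of these 6, 3 had an unadjusted p below 0.05 (edgeR), beside 17.5% of all genes. The part of the hypothalamic and choroid plexus genes in the *Cartpt* difference was not tested. Thalamic genes gave 0 DEGs of 7 tested with a median of 0.15, and cortical genes 0 of 6 with a median of -0.12. In each of these lists 1 gene had an unadjusted p below 0.05 (edgeR).

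*Cck*, the cholecystokinin precursor gene, was the gene that separated non-addicted from MA12 rats. It was at 4.00, 3.92, 3.57 and 4.10 log2 CPM in non-addicted rats and at 4.20, 4.17, 4.40 and 4.31 in MA12 rats, so every non-addicted rat was below every MA12 rat, as for 7.1% of all genes in either direction. The log2FC was -0.37 (SE 0.13, interval -0.65 to -0.09, adjusted p = 0.258, edgeR), and the exact permutation p was 0.0286, the smallest possible.

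MA24 rats held *Cck* at 3.92, 3.85, 4.60 and 4.56 log2 CPM and so fell into 2 low and 2 high rats. Non-addicted vs. MA24 gave -0.37 (SE 0.18, adjusted p = 0.282, edgeR) with overlapping groups. In MA24 vs. MA12 the log2FC was 0.00 (SE 0.16) with an interval of -0.33 to 0.34. Genes of cortical neurons, many of which express *Cck*, gave 0 DEGs of 6 tested in non-addicted vs. MA12 with a median of -0.02, and their summed level was 3478 to 5109 CPM in non-addicted, 3640 to 5009 in MA12 and 5010 to 6055 in MA24 rats. Their part in the *Cck* values was not tested. Most of the summed level came from *Nrgn*, with 78690 to 116377 counts over all rats, followed by *Lamp5* with 4174 to 6427. The sum therefore says little of the other cortical genes or of the amount of cortex. Among those, *Neurod6* reached at most 7 counts, and *Slc17a7* had 46 to 181.

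*Sst* in non-addicted rats was at 7.84, 7.75, 7.58 and 7.48 log2 CPM. Against MA24 the log2FC was -0.27 (SE 0.11, interval -0.50 to -0.04, adjusted p = 0.224, edgeR), and against MA12 it was -0.07 (SE 0.11). *Tac1* in non-addicted rats was at 8.92, 8.53, 8.53 and 8.97, with a log2FC of -0.14 (SE 0.13) against MA12 and -0.06 (SE 0.11) against MA24. None of these passed the test. Alongside *Tac1*, the direct pathway gene *Pdyn* was called lower in non-addicted than in MA12 rats (log2FC -0.65, SE 0.12, adjusted p = 0.0281, edgeR), the only DEG among 5 tested genes of that list. Of all genes, 0.149% were called lower in this direction. *Pdyn* had 4601 to 7733 counts in non-addicted and 8936 to 10714 in MA12 rats, with no overlap, as for 7.1% of all genes. MA24 rats, at 5323 to 8281 counts, were also below every MA12 rat, and non-addicted vs. MA24 gave -0.08 (SE 0.12, adjusted p = 0.740, edgeR). The call against MA12 was lost in 8 of 16 other settings (highest adjusted p 0.0715). These were the fits without the variance filter and with at least 10 counts, the fit of rats without an N, and those without non-addicted rats 11 or 12 or MA12 rats 21, 4N or 7N.

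Receptors of these peptides were examined as a list of 21 genes. In MA24 vs. MA12, 17 were tested, 0 were called higher and 1 lower, beside 0.735% higher and 1.72% lower of all genes. The median log2FC was -0.25 beside -0.02 for all genes. In non-addicted vs. MA12, 0 of 18 were called beside 0.251% of all genes, with a median of 0.07. In non-addicted vs. MA24, 0 of 17 were called beside 0.456%, with a median of 0.31. The counts at an unadjusted p below 0.05 were 3 of 17, 2 of 18 and 5 of 17 in these 3 comparisons, beside 23.6%, 12.3% and 17.5% of all genes.

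The receptor called was *Crhr2*, the type 2 receptor for CRH-family peptides. It had 114, 16, 5 and 9 counts in MA12 rats, 4, 1, 3 and 4 in MA24 rats and 24, 73, 11 and 3 in non-addicted rats. All MA24 rats were below all MA12 rats, where 15.6% of all genes had groups without overlap in either direction. MA12 rat 21, which also had the most *Crh*, stood far above the rest. From MA12 to MA24 *Crhr2* fell by 3.36 on the log2 scale (SE 0.85, adjusted p = 0.0276, edgeR). The call was lost in 8 of 16 other settings and held in 7, and the remaining setting gave no adjusted p. Without rat 21 the log2FC was -1.64 with an adjusted p of 0.296, and leaving out MA24 rats 14N, 15N or 16N gave adjusted p of 0.0645, 0.0621 and 0.0598. Among rats with an N it was -1.28 (adjusted p = 0.582, edgeR).

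Ligand and receptor differed widely in depth for some pairs, which are named here after their values were seen. *Adcyap1r1*, the receptor for PACAP, had 4611 to 7224 counts in the same libraries in which *Adcyap1* had at most 9. *Cckbr*, the gastrin and CCK receptor of the brain, had 375 to 573 counts, and *Cckar* had 0 to 4. *Trhr* had 0 to 24 counts where *Trh* had 177 to 271. *Npy1r* had 79 to 187 counts where *Npy*, with the limit given above, had at most 24.

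**Figure D4:**
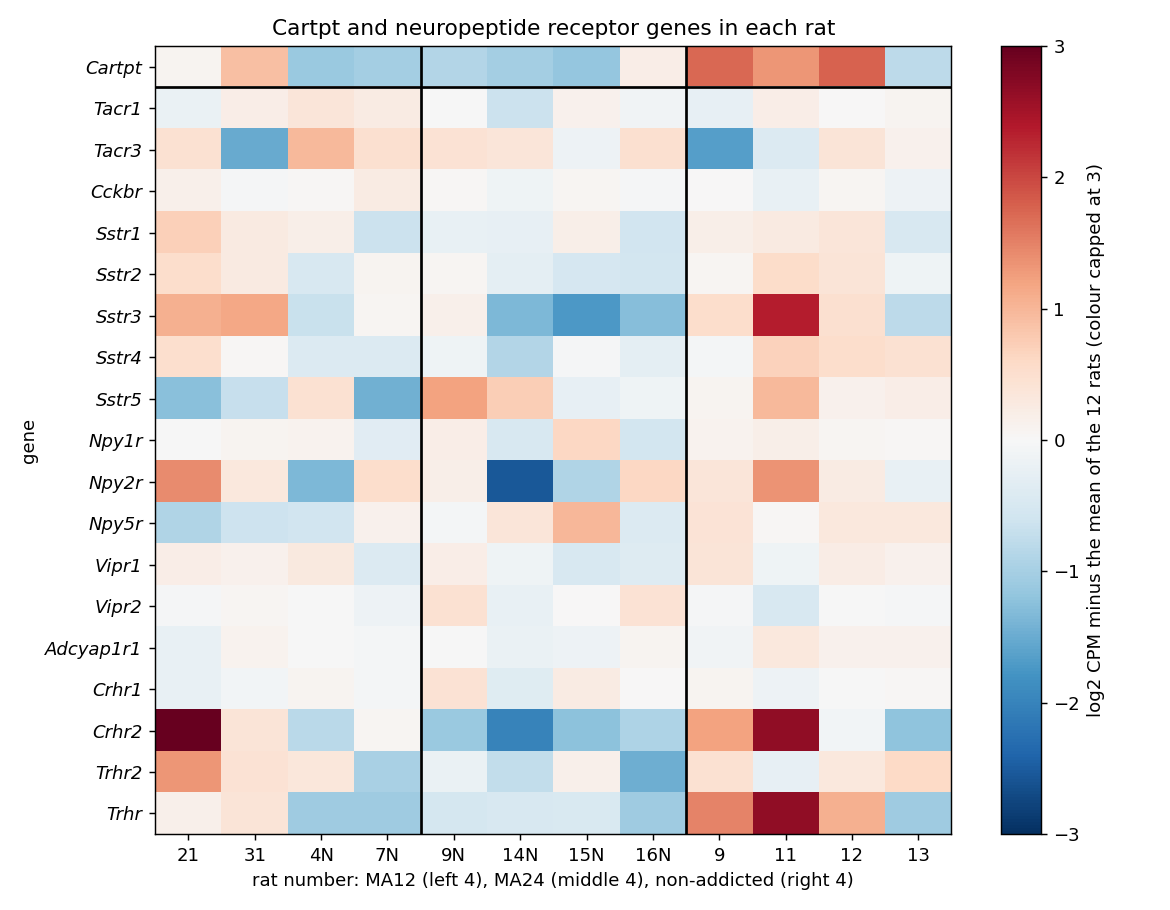
*Cartpt* (top line) and receptor genes (y axis) in each rat (x axis: MA12 on the left, MA24 in the middle, non-addicted on the right), coloured by log2 CPM minus the mean of the 12 rats and capped at 3. *Cartpt* is high in non-addicted rats 9, 11 and 12 and low in rat 13, while *Crhr2* stands out in MA12 rat 21 (114 counts) and non-addicted rat 11 (73 counts).

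A further 2 genes of the marker lists were called, both lower in MA24 than in MA12, as were 1.72% of all genes. *Grik3*, a kainate receptor subunit listed with indirect pathway genes, was the 1 DEG of 7 tested (log2FC -1.01, SE 0.20, adjusted p = 0.0103, edgeR), and the median of that list was -0.13. *Prkcd*, a protein kinase C listed with thalamic genes, was the 1 DEG of 6 tested (-0.94, SE 0.20, adjusted p = 0.0131, edgeR), with a list median of -0.28. The groups of *Prkcd* overlapped, with 4.27 log2 CPM in MA12 rat 4N and 4.33 in MA24 rat 16N. Its call was lost in 3 of 17 other settings, and that of *Grik3* in 1. Among rats with an N the log2FC of *Prkcd* was -0.43 (adjusted p = 0.251, edgeR). Beyond *Nos1*, *Pdyn*, *Grik3* and *Prkcd*, no gene of the cell type and tissue marker lists was called in any of the 3 comparisons. The list genes *Penk* and *Drd2* of the indirect pathway held 41286 to 63052 and 8422 to 11371 counts over all rats.

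The peptide genes did not vary together as a block over the 12 libraries. The highest correlation among the 10 genes was between *Sst* and *Trh* (Pearson r = 0.60) and the lowest between *Tac1* and *Cartpt* (r = -0.66), followed by *Cck* and *Scg2* (r = -0.64). These are descriptions over 12 libraries that share group and sequencing, without a test. Compared with the 10764 genes of at least 50 mean counts, *Cartpt* was closest to *Fxyd6* (r = 0.92), *Ccdc85a* (0.91) and *Fhl1* (0.90). *Scg2* was closest to *Magee1* (0.92), *Tspyl1* (0.90) and *Gspt2* (0.89), and *Sst* to *Npepl1* (0.91), *S100a1* (0.91) and *Cd81* (0.88). *Tac1* was closest to *Cox7c* (0.90), *Rhoa* (0.89) and *Timm23* (0.88), *Cck* to *Nt5c3b* (0.90), *Plcd4* (0.89) and *Plcd1* (0.84), and *Trh* to *Mrpl40* (0.84), *Ephx1* (0.83) and *Porcn* (0.82). The closest genes of these 6 peptides had no gene in common.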

How the data were processed

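RNA sequencing of striatum was analysed in 12 rats, 4 each of MA12, MA24 and non-addicted, grouped by their labels. According to the methods and processing notes, cutadapt 1.18 trimmed the poly-A RNA reads, STAR 2.7.0e placed them on rn6 and featureCounts counted them per gene (HTSeq 0.12.4 is also named, without a role). The authors deposited raw counts of 17337 genes, not normalized, and settings for strand and multimapping reads are not given in the sources used here. Between 17908962 and 23850284 counts per rat leave genes under about 10 counts with a large counting error.

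Within a pair of groups (8 libraries), genes needed a mean count above 4, the 15% of lowest log2 CPM variance were removed, and edgeR 4.0.16 (R 4.3.3; TMM, glmQLFit, glmQLFTest) was run on the counts of that pair, with an FC of 1.5 or more and a Benjamini-Hochberg adjusted p under 0.05 for DEGs. Intervals are 95%. Levels are log2 CPM (prior count 2, TMM over 12 libraries), compared by exact permutation with Python 3.11.15 and scipy 1.17.1. As alternatives, filters were changed, rats were left out in turn or split by kind of number, all 3 groups were fitted together, and RLE factors, edgeR's likelihood ratio test and DESeq2 1.42.0 were used.

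All 10 genes were named, with list genes called in any comparison and, for genes of at least 50 mean counts, the 3 most correlated genes. The lists covered direct and indirect pathway, projection neuron, interneuron, cortical, hypothalamic, thalamic, choroid plexus, receptor, processing and degrading genes. The 10 genes and the lists were chosen with earlier results of these data known. Projection neuron genes gave 0 DEGs of 9 tested, and interneuron genes outside the *Sst* class 0 of 10, in each comparison.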

Additional observations from a re-analysis of the deposited data

Results flagged for a closer look

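In 45 groups of 4 rats, formed by the named genes in each of the 3 groups, 1 rat lay farther from the others than Dixon's 95% critical value allows, where chance gives about 2.25. It was non-addicted rat 9 for *Nos1*, the nitric oxide synthase gene of *Sst* interneurons, with 206 counts beside 520 to 653 in the other non-addicted rats (gap over range 0.966). Its *Sst* level of 7.84 log2 CPM was the highest of the non-addicted rats.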

How the results depend on the processing

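Of 422 refits of the fitted differences of the 9 tested peptide genes, 386 kept direction and side of the threshold, 9 lost the call of *Cartpt*, 2 gained a call and 25 turned sign. A refit without an adjusted p was counted as kept if its direction held.

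The number of peptide genes called as DEGs in MA24 vs. MA12 rose to 1 (*Vip*, adjusted p = 0.0413) with edgeR's likelihood ratio test. The quasi-likelihood test called 2.45% of all genes there, and the share under the likelihood ratio test is not given here. The number of peptide genes called was 0 to 1 in non-addicted vs. MA12 and 0 to 1 in non-addicted vs. MA24 when rats were left out in turn. In non-addicted vs. MA24 it was 0 with DESeq2, without the variance filter, with at least 1 or at least 10 counts, and with all 3 groups in the fit, where 2 to 3 of the genes had an unadjusted p below 0.05. In the reported fit 17.5% of all genes had such a p. Dropping the variance filter, the DEGs among all genes were 195 in MA24 vs. MA12, 5 in non-addicted vs. MA12 and 0 in non-addicted vs. MA24 by edgeR, the last beside 2229 genes at an unadjusted p below 0.05 and 126 DEGs by DESeq2 on the filtered genes. The cause was not tested.

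Signs turned in *Cartpt* and in estimates that were small or rested on few reads. With only N-numbered rats and with the kind of number as a covariate, MA24 vs. MA12 gave 0.49 and 0.47 for *Cartpt* and -0.070 and -0.087 for *Cck*. With only rats without N, non-addicted vs. MA12 gave 0.0043 for *Tac1* and 0.12 for *Sst*. Leaving out rats in turn, MA24 vs. MA12 ranged from -0.13 to 0.12 for *Cck*, -0.69 to 0.012 for *Npy*, -2.86 to 0.20 for *Crh* and -0.25 to 0.00021 for *Scg2*. Non-addicted vs. MA12 ranged from -0.12 to 0.0067 for *Sst*, -0.049 to 0.14 for *Trh* and -1.56 to 0.83 for *Crh*, and non-addicted vs. MA24 from -0.15 to 0.0039 for *Tac1*, -1.35 to 0.38 for *Vip* and -0.11 to 2.03 for *Crh*. No paired analysis was possible because the rat numbers are not shared between groups.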
